A study of Mus musculus with 17 samples.

Results

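Lymphoid-primed multipotent progenitors (LMPP) were set against hematopoietic stem cells (HSC) across all genes of an Affymetrix Mouse Gene 2.0 ST array. The comparison used 4 of 17 arrays, the 2 labelled LMPP and the 2 labelled HSC, chosen by their labels alone. For each of 22180 genes with a probe set of its own, the brightest probe set over all arrays gave the gene's log2 level. LMPP and HSC were sorted from mouse bone marrow by flow cytometry, and both came from the same kind of donor and host. The donors were TCF-1 GFP reporter mice, whose marrow was given to B6 CD45.1 recipients after a lethal dose of 900 rads, and the chimeras were used 12 weeks later. Cells of several chimeras were pooled, and the sources used here do not give the antibodies and gates. A reconstituted host can keep some cells of its own. The labels do not state whether replicate arrays come from separate groups of animals, so the p-values reflect the spread among these arrays, which may be technical. The other arrays held flt3+ and flt3- common myeloid progenitors (CMP), common lymphoid progenitors (CLP), an early innate lymphoid progenitor (EILP) and natural killer (NK) cells, and thymic ETP and DN3 cells. They serve here to estimate each gene's spread and to place the genes that differ.

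Hematopoietic stem cells renew themselves and can form every blood lineage. In the mouse, many of them carry transcripts of the platelet-forming megakaryocyte lineage, with which they share transcription factors and surface receptors. LMPP are a multipotent stage that keeps lymphoid and granulocyte-monocyte potential and has lost most potential for megakaryocytes and red cells. In LMPP, genes of later lymphocyte development are already transcribed at low level, which is called lymphoid priming.

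Of 22180 genes, 61 were called higher in LMPP (0.275% of the genes tested) and 72 lower (0.325%). Calls rest on limma's moderated test with all 17 arrays in the fit, at a p adjusted over all genes (Benjamini-Hochberg) under 0.05, and each size given is a log2 difference, LMPP minus HSC, with its standard error (SE, n = 2 arrays each). At least 2-fold changes made up 112 of these 133 calls, 52 higher and 60 lower. At an unadjusted p under 0.05 there were 747 higher and 894 lower genes, 3.37% and 4.03% of all, and 51.5% of all genes had a positive and 48.5% a negative difference. Most genes differed little between the 2 populations. The median gene differed by 0.14 between the LMPP and HSC means, and the median signed difference was 0.01. Between single arrays the median gene differed by 0.18 within LMPP and by 0.19 within HSC. Means of 2 arrays carry less noise than single arrays, so 0.14 cannot be compared directly with 0.18 and 0.19. In all 133 called genes the LMPP and HSC arrays did not overlap, which was also so for 36.4% of all genes. In 50 of the 133 the lower population lay below 4.54, the median of all values in the table, where the size of a difference is uncertain. Without HSC replicate 1 the calls numbered 57, without LMPP replicate 2 they numbered 66, and without LMPP replicate 1 they numbered 69. With only the 4 arrays compared in the fit they numbered 29, and 30 of 55 named or listed genes followed lost their call there. Losses in that fit are not repeated for every gene below. In this comparison of pooled cells, fewer cells of a kind and less RNA per cell cannot be told apart.

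**Figure D1:**
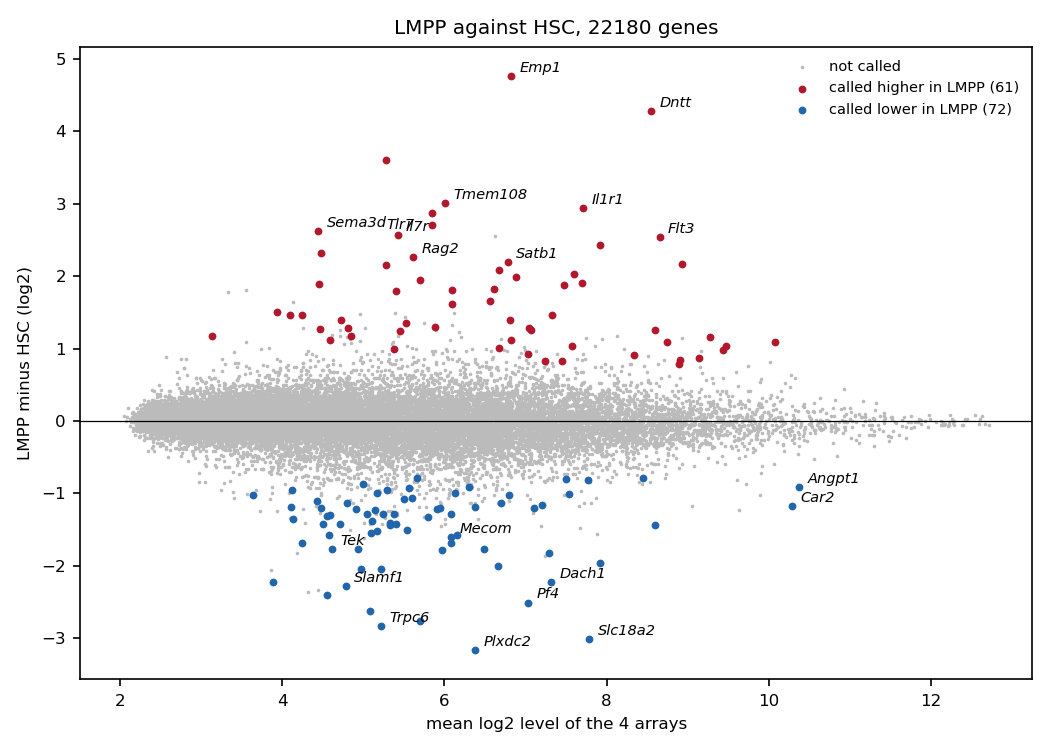
LMPP minus HSC difference (log2, vertical) against the mean log2 level of the 4 arrays (horizontal), 1 point a gene. Red points are the 61 genes called higher in LMPP, blue points the 72 called lower and grey points all others. Emp1 at 4.77 and Dntt at 4.28 lie highest, and Plxdc2 at -3.17 and Slc18a2 at -3.01 lowest.

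The labels were checked against textbook markers. Of the LMPP markers measured, Dntt, Satb1, Flt3 and Cd48 were higher in LMPP, and of the HSC markers Slamf1, Mecom and Procr were lower in LMPP, all called by this test. Flt3 had levels of 9.61 and 10.24 in LMPP, against 7.47 and 7.31 in HSC. Slamf1 had 3.73 and 3.56 in LMPP, against 6.05 and 5.81 in HSC. Flt3, Slamf1 and Cd48 are surface proteins by which these cells are commonly sorted, so their differences check the labels and are no finding. The call of Flt3 was lost without LMPP replicate 2, and that of Cd48 without LMPP replicate 1, without LMPP replicate 2 and without HSC replicate 1. Other HSC markers were not called, with Hlf at 7.31 and 7.41 in LMPP against 7.80 and 7.41 in HSC, Fgd5 at -0.61 (adjusted p = 0.32) and Vwf at -0.49 (adjusted p = 0.44). Notch1, an LMPP marker, was 0.56 higher (adjusted p = 0.49). Kit, a receptor of all early progenitors, was at 8.64 and 8.91 in LMPP and 9.19 and 8.71 in HSC.

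Array medians lay between 4.45 and 4.62 over the series, and between 4.53 and 4.58 for these 4 arrays. Defining markers of T cells (Cd3e at 3.21 to 3.58) and endothelium (Cdh5 at 3.64 to 4.0) lay below 4.54 in the 4 arrays, and those of NK cells (Ncr1 at 4.22 to 4.79) and macrophages (Adgre1 at 4.64 to 5.16) lay near it. Neutrophil transcripts were bright in all 4, with Camp, a granule peptide gene, at 11.22 and 11.13 in LMPP and 10.96 and 11.29 in HSC. Camp averaged 4.33 in ETP and 3.52 in DN3, and 10.17 to 12.05 in the other populations outside LMPP and HSC. Of 14 late neutrophil markers none was called by limma and none had an unadjusted p under 0.05. The replicates differed in these markers. HSC replicate 1 was above HSC replicate 2 in 3 of the 14, against 47.5% of all genes. LMPP replicate 1 was above LMPP replicate 2 in 13 of the 14, against 52.8% of all genes. Their summed level, given as the mean over the list, was 9.79 and 9.58 in LMPP and 9.68 and 9.87 in HSC. All 4 arrays were on the same side of a split by Y-linked transcripts that runs through the series.

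Genes of lymphocyte development were among the largest rises in LMPP. Of 36 lymphoid priming genes measured, 9 were called higher and none lower, against 0.275% and 0.325% of all genes, and their median difference was 0.56 against 0.01 over all genes. Without the sorting markers Flt3 and Cd48, 7 of 34 were called higher. All gene lists here were chosen with earlier results of these data known, so counts of their members called are a description only. Dntt, which encodes the terminal transferase that adds bases at the joints of rearranging antigen receptor genes, had levels of 10.56 and 10.83 in LMPP, against 5.94 and 6.88 in HSC. It rose by 4.28 ± 0.28 (limma adjusted p = 9.6e-06), a 19.5-fold change. Both LMPP arrays stood far above both HSC arrays, and the HSC arrays differed from each other more than the LMPP arrays did.

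Rag2, a subunit of the recombinase that cuts antigen receptor genes, had levels of 6.73 and 6.78 in LMPP, against 4.18 and 4.81 in HSC. It rose by 2.26 ± 0.26 (limma adjusted p = 0.00086). Il7r, the receptor chain for interleukin 7, a growth factor of early lymphocytes, had 6.65 and 6.76 in LMPP, against 4.46 and 3.82 in HSC. The rise of Il7r was 2.57 ± 0.28 (limma adjusted p = 0.00056). For both genes the LMPP arrays were close together and well above the HSC arrays, and the HSC means lay below 4.54. Satb1, a chromatin organiser needed for lymphoid development, had 7.68 and 8.07 in LMPP, against 5.71 and 5.65 in HSC, a rise of 2.20 ± 0.16 (limma adjusted p = 1.5e-05). Its HSC arrays nearly coincided, and its LMPP arrays lay well above them.

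Smaller rises came from Cnn3, an actin-binding calponin, at 1.62 ± 0.28 (limma adjusted p = 0.015), and Arpp21, a cyclic AMP-regulated phosphoprotein, at 1.47 ± 0.22 (limma adjusted p = 0.0051). Tespa1, a signalling protein of developing T cells, was higher by 1.39 ± 0.26 (limma adjusted p = 0.028). The HSC mean of Arpp21 lay below 4.54, so the size of its rise is uncertain. The calls of Cnn3, Arpp21 and Tespa1 were each lost without LMPP replicate 2 and without HSC replicate 1, where 4 and 5 of the 36 genes were called, while Dntt, Il7r, Rag2 and Satb1 kept theirs under every alternative run. Ikzf1, the founding Ikaros factor, had 9.04 and 9.20 in LMPP against 8.43 and 8.14 in HSC and was not called (0.84, adjusted p = 0.087). Mef2c and Sox4, transcription factors of lymphoid progenitors, differed by 0.68 (adjusted p = 0.45) and 0.60 (adjusted p = 0.44). Counting at an unadjusted p under 0.05, 22 of the 36 genes were higher (3.37% of all genes) and 1, Tcf3, which encodes E2A, was lower, at -0.46 (adjusted p = 0.65).

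The promoters of Dntt, Il7r and Rag2 are shown because they were the 3 lymphoid priming genes called higher both in LMPP against HSC and in flt3+ against flt3- CMP. Each is the RefSeq window of 300 bases, 250 before and 50 after the gene's start (build GRCm38.p6), at chr19:41029025-41029324 on the plus strand for Dntt, chr15:9529827-9530126 on the minus strand for Il7r and chr2:101624462-101624761 on the plus strand for Rag2. Capitals mark matches to any of 5 short motifs, searched on both strands: AGATAA for GATA factors, AGGAAG for ETS factors, TGTGGT for RUNX factors, CAGCTG or CACCTG for E proteins and TGACAG for MEIS factors.
Dntt: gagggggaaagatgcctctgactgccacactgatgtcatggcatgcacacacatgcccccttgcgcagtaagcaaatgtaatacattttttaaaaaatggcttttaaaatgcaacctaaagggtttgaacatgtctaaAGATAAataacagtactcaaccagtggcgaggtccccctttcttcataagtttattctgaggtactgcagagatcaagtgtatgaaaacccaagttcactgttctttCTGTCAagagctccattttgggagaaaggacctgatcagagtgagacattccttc
Il7r: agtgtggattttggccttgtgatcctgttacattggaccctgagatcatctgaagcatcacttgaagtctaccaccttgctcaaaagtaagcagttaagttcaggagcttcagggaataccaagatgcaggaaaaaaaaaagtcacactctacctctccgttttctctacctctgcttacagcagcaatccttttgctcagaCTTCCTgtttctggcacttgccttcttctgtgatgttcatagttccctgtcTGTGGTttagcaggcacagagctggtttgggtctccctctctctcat
Rag2: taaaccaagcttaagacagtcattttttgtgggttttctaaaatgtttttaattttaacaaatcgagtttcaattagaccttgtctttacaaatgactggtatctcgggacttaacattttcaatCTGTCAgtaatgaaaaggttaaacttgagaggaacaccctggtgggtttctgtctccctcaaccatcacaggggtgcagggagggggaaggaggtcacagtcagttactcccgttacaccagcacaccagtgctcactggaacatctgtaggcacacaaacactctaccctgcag
In the Dntt window the GATA letters begin 112 bases before the start and the MEIS letters, read as CTGTCA, begin 5 bases before it. The Il7r window holds the ETS letters, read as CTTCCT, 48 bases before the start and the RUNX letters from base 4 after it. The Rag2 window holds the MEIS letters 125 bases before the start.

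Over the called genes the same motifs were counted where a window was at hand. Of 53 promoters of genes higher in LMPP, 12 (22.6%) held the RUNX letters, against 1 of 51 promoters (1.96%) of genes lower in LMPP and 14.6% of 16990 promoters of all genes. The GATA letters stood in 5.66% of promoters of higher genes, 11.8% of those of lower genes and 9.98% of all. For the ETS letters the shares were 43.4% and 43.1%, against 33.7% of all, for E proteins 32.1% and 33.3% against 32% of all, and for MEIS factors 20.8% and 13.7% against 18.7% of all. A match describes the letters of the window and is no evidence of binding.

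Outside the list, the rule of the 15 largest changes in each direction named further genes that rose. Emp1, a membrane protein related to a peripheral myelin protein, had levels of 9.34 and 9.08 in LMPP, against 3.53 and 5.35 in HSC, and rose by 4.77 ± 0.53 (limma adjusted p = 0.00074). No gene called in this comparison had a larger difference, but its HSC arrays lay far apart and their mean was below 4.54. Il1r1, the signalling receptor for interleukin 1, had 9.18 in both LMPP arrays, against 5.75 and 6.72 in HSC, a rise of 2.94 ± 0.31 (limma adjusted p = 0.00049). Tlr7, an endosomal sensor of single-stranded RNA, had 7.22 and 7.36 in LMPP, against 4.72 and 4.11 in HSC, and rose by 2.88 ± 0.35 (limma adjusted p = 0.0013). Each of these receptors was tightly repeated in LMPP and more variable in HSC.

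Others named by the rule were Tmem108, a transmembrane protein, at 3.01, Sema3d, a secreted semaphorin, at 2.62, and Wfdc17, a secreted protein with a whey acidic protein domain, at 2.43. Gria2, a glutamate receptor subunit, rose by 2.32, with 4.87 and 6.40 in LMPP against 3.27 and 3.36 in HSC. The LMPP arrays of Gria2 were far apart, and its call was lost without HSC replicate 1 and without HSC replicate 2. With only the arrays of LMPP and HSC in the fit it was lost too. The HSC means of Tlr7, Tmem108, Sema3d and Gria2 lay below 4.54, so the size of these rises is uncertain. Sdc1, the syndecan that marks plasma cells, rose by 2.09, Adgrg3, an adhesion G protein-coupled receptor, by 2.03 and Slc9a9, an endosomal sodium-proton exchanger, by 1.99. When probe sets of a gene were averaged in place of taking the brightest, Emp1 was higher by 3.22, Tmem108 by 1.65 and Sdc1 by 1.24. The call of Tmem108 was lost without LMPP replicate 1, without HSC replicate 1 and without HSC replicate 2, that of Slc9a9 without LMPP replicate 1 and without HSC replicate 1, and that of Wfdc17 without LMPP replicate 2 and without HSC replicate 1. Slc9a9 also lost its call with only the arrays of LMPP and HSC in the fit, and Tmem108 in the 12 arrays low in Y-linked transcripts.

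**Figure D2:**
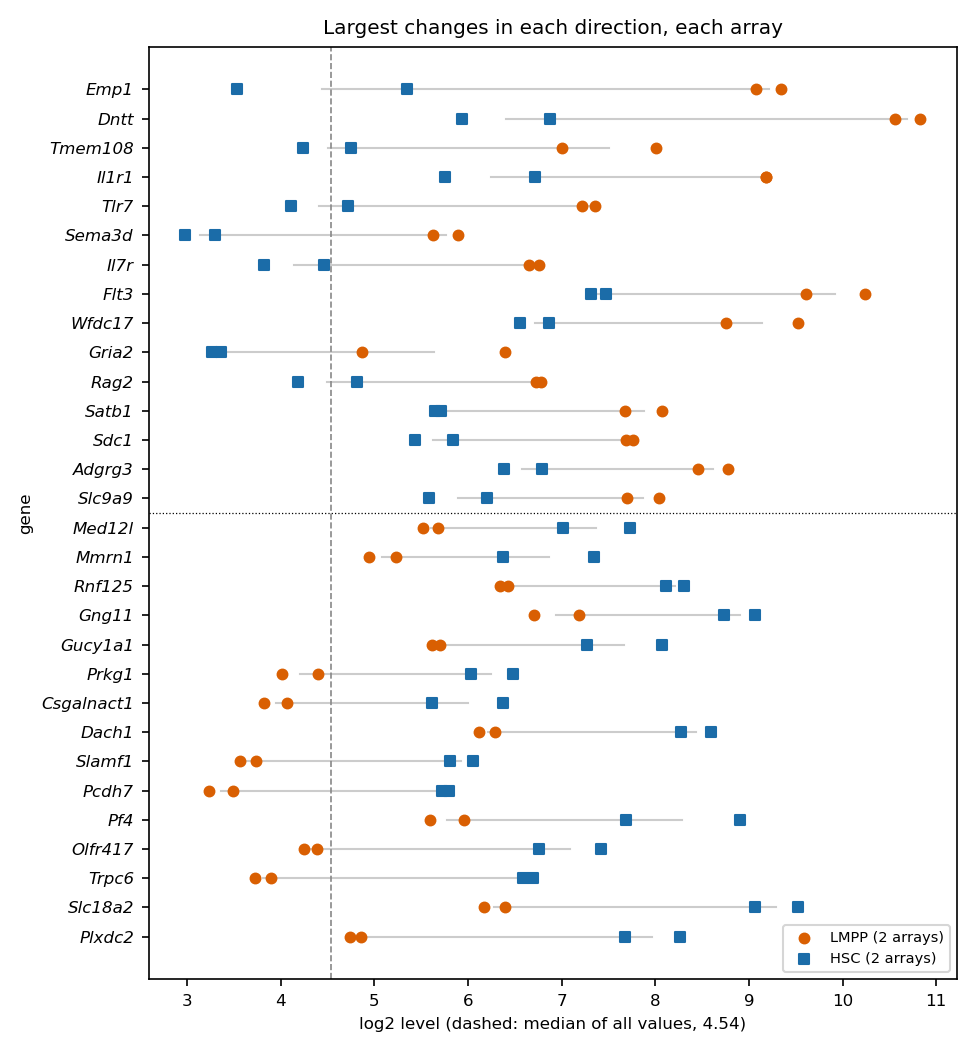
Log2 level (horizontal) of the 15 genes with the largest rise, above the dotted line, and the 15 with the largest fall, below it, in each LMPP array (orange circles) and each HSC array (blue squares). Grey lines join the 2 population means, and the dashed line is the median of all values, 4.54. The rule that chose these genes required LMPP and HSC points to stand apart, which they did in 36.4% of all genes. Dntt was at 10.56 and 10.83 in LMPP against 5.94 and 6.88 in HSC.

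Several stem cell receptor genes fell in LMPP. Of 36 stem cell surface and signalling genes, 8 were called lower (0.325% of all genes) and none higher, with a median of -0.48 against 0.01 over all genes. HSC replicate 1 was above HSC replicate 2 in 27 of the 36, against 47.5% of all genes, and the list means were 6.31 and 6.30 in LMPP and 6.95 and 6.70 in HSC. Without the sorting marker Slamf1, 7 of 35 were called lower. Tek, the angiopoietin receptor Tie2, had levels of 4.01 and 3.44 in LMPP, against 5.81 and 5.18 in HSC, and fell by 1.77 ± 0.22 (limma adjusted p = 0.0018). Its relative Tie1 fell by 1.23 ± 0.24 (limma adjusted p = 0.035), with 4.32 and 4.74 in LMPP against 5.89 and 5.63 in HSC. Both receptors lay near or below 4.54 in LMPP.

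Angpt1, the ligand of Tek, was bright in all 4 arrays, at 9.81 and 10.03 in LMPP and 10.95 and 10.72 in HSC, and fell by 0.91 ± 0.18 (limma adjusted p = 0.038). That call held in 4 of 14 other settings, and with the probe sets of the gene averaged the difference was -0.60 (limma adjusted p = 0.36). Eng, a coreceptor for transforming growth factor beta, fell by 1.14, Tgm2, a transglutaminase, by 1.07, Itga6, the integrin alpha 6 chain, by 1.02 and Procr, the endothelial protein C receptor, by 0.87. The calls of Angpt1, Tie1, Eng, Tgm2, Itga6 and Procr were each lost without LMPP replicate 1, without LMPP replicate 2 and without HSC replicate 1. In those fits 2 or 3 of the 36 genes were called, and with only the 4 arrays compared 1 was. Without HSC replicate 1 the difference of Eng was -0.71. Tek and Slamf1 kept their calls in each fit without 1 array, and Slamf1 alone kept its call with only the 4 arrays compared. Cd34, a sialomucin of early progenitors, had 10.02 and 10.22 in LMPP against 9.66 and 9.08 in HSC and was not called (0.76, adjusted p = 0.6).

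Of 27 stem cell transcription regulators, 3 were called lower (0.325% of all genes) and none higher, with a median of -0.20. HSC replicate 1 was above HSC replicate 2 in 20 of the 27, against 47.5% of all genes, and the list means were 6.20 and 6.29 in LMPP and 6.72 and 6.47 in HSC. Mecom, a zinc finger factor needed for stem cell maintenance, had levels of 5.12 and 5.45 in LMPP, against 7.10 and 6.69 in HSC, and fell by 1.61 ± 0.19 (limma adjusted p = 0.0011). Klf12, a Krüppel-like factor, had 3.92 and 4.17 in LMPP, against 5.68 and 5.96 in HSC, and fell by 1.77 ± 0.23 (limma adjusted p = 0.0025). Zfp521, a zinc finger cofactor, fell by 1.19 ± 0.20 (limma adjusted p = 0.015), a call lost without LMPP replicate 1, without LMPP replicate 2 and without HSC replicate 1. For all 3 factors the LMPP and HSC arrays did not overlap, as in all 133 called genes and 36.4% of all genes. With only the 4 arrays compared, Klf12 kept its call and Mecom and Zfp521 lost theirs.

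Other known regulators of stem cells were not called. Meis1, a homeobox cofactor, had 9.04 and 9.34 in LMPP and 10.11 and 9.92 in HSC (-0.82, adjusted p = 0.094). Mllt3, a reader of acetylated chromatin, had 7.06 and 7.42 in LMPP and 8.72 and 8.02 in HSC (-1.13, adjusted p = 0.058). Gata2 differed by -0.90 (adjusted p = 0.25). With quantile normalization 5 regulators were called lower, and with only the 4 arrays compared 1 was. Of 20 Hox genes and cofactors, Hoxb6 was called lower (0.325% of all genes), at -1.03 ± 0.16 (limma adjusted p = 0.0069). None was higher, and the median was -0.11. Hoxb6 lay below 4.54 in all 4 arrays, at 3.11 and 3.15 in LMPP against 4.26 and 4.07 in HSC, and its call was lost without LMPP replicate 1, without LMPP replicate 2 and without HSC replicate 1.

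Most megakaryocyte genes had a negative difference, and few passed. Of 29 measured, 4 were called lower (0.325% of all genes) and none higher, 26 had a negative difference (48.5% of all genes), and 17 were lower at an unadjusted p under 0.05 (4.03% of all genes), with a median of -0.54. Pf4, the platelet granule chemokine CXCL4, had levels of 5.96 and 5.59 in LMPP, against 8.90 and 7.69 in HSC, and fell by 2.51 ± 0.43 (limma adjusted p = 0.016). Mmrn1, the platelet granule protein multimerin, had 5.23 and 4.94 in LMPP, against 7.35 and 6.37 in HSC, and fell by 1.78 ± 0.28 (limma adjusted p = 0.0092). In both genes HSC replicate 1 was about 1 log2 unit above HSC replicate 2, and both still lay above LMPP.

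Zfpm1, the GATA1 cofactor FOG1, fell by 1.20 ± 0.21 (limma adjusted p = 0.016) and Tbxas1, the thromboxane synthase, by 1.20 ± 0.23 (limma adjusted p = 0.035). Among those not called were Gp9, a platelet glycoprotein, at -1.36 (adjusted p = 0.22), F2r, a thrombin receptor, at -1.17 (adjusted p = 0.12), Itga2b, the integrin CD41, at -0.69 (adjusted p = 0.18), and Clec1b, a lectin receptor of platelets, at 0.17. HSC replicate 1 was above HSC replicate 2 in 20 of the 29 megakaryocyte genes, against 47.5% of all genes. Without LMPP replicate 2 limma called none of the 29 (14 lower at an unadjusted p under 0.05), without HSC replicate 1 none (11 lower), and without LMPP replicate 1 there was 1. With only the 4 arrays compared limma called none (18 lower at an unadjusted p under 0.05). 

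The Pf4 promoter is shown as the counterpart of the lymphoid ones, from the megakaryocyte gene with the largest fall, at chr5:90772185-90772484 on the plus strand (RefSeq, GRCm38.p6, same window and motifs).
Pf4: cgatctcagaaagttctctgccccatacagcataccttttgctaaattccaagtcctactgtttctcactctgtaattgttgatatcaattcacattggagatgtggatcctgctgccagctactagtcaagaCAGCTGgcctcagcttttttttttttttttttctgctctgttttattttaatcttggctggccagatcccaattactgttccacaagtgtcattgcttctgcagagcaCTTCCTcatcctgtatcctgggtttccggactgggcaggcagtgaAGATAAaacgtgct
Here the GATA letters begin at base 37 after the start, the ETS letters, read as CTTCCT, 9 bases before it and the E protein letters 117 bases before it.

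Erythroid genes had a median of -0.57. Of 19, only Car2, carbonic anhydrase 2, was called (lower, 0.325% of all genes). At an unadjusted p under 0.05, 11 were lower and none higher (4.03% and 3.37% of all genes). Car2 had levels of 9.57 and 9.82 in LMPP, against 11.10 and 10.65 in HSC, and fell by 1.18 ± 0.22 (limma adjusted p = 0.032), a call lost without LMPP replicate 1, without LMPP replicate 2 and without HSC replicate 1. Car1, its close relative, had 9.57 and 9.17 in LMPP and 10.48 and 10.33 in HSC (-1.03, adjusted p = 0.11). Gata1, the main factor of both lineages, had 4.87 and 4.46 in LMPP and 5.34 and 5.24 in HSC (-0.63, adjusted p = 0.61). Of the 8 mature red cell markers listed, 2 were measured and none was called by limma, with 1 lower at an unadjusted p under 0.05.

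The largest falls outside these lists were in Plxdc2, a plexin domain membrane protein, and Slc18a2, the vesicular monoamine transporter. Plxdc2 had levels of 4.74 and 4.86 in LMPP, against 7.68 and 8.26 in HSC, and fell by 3.17 ± 0.27 (limma adjusted p = 6.9e-05). Slc18a2 had 6.40 and 6.17 in LMPP, against 9.52 and 9.07 in HSC, and fell by 3.01 ± 0.23 (limma adjusted p = 2.1e-05). Trpc6, a cation channel, had 3.72 and 3.90 in LMPP, against 6.69 and 6.59 in HSC, and fell by 2.83 ± 0.19 (limma adjusted p = 9.6e-06). The rule that named these 3 genes required no overlap between LMPP and HSC arrays, which 36.4% of all genes met. The HSC arrays of Plxdc2 and Slc18a2 were farther apart than those of Trpc6.

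Pcdh7, a protocadherin, fell by 2.40, Dach1, a transcription cofactor, by 2.23, Csgalnact1, an enzyme of chondroitin sulfate synthesis, by 2.05 and Gng11, a G protein gamma subunit, by 1.96. Gucy1a1, a subunit of the guanylate cyclase that makes cyclic GMP, fell by 2.01, and Prkg1, a kinase driven by cyclic GMP, by 2.05. Rnf125, a ubiquitin ligase, fell by 1.83 and Med12l, a Mediator subunit, by 1.77. Olfr417, an olfactory receptor gene of a large family whose probe sets may take up related transcripts, fell by 2.77. LMPP lay below 4.54 for Trpc6, Pcdh7, Csgalnact1, Prkg1, Olfr417 and Slamf1, so the size of these falls is uncertain. The call of Gng11 was lost without LMPP replicate 2 and without HSC replicate 2, and that of Gucy1a1 without LMPP replicate 2. With only the arrays of LMPP and HSC in the fit, Gucy1a1, Csgalnact1 and Med12l lost their calls.

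Cytokine receptors changed in both directions. Of 32, 4 were called higher (Flt3, Il7r, Il1r1 and Il18r1) and 2 lower (Tek and Tgfbr3), against 0.275% and 0.325% of all genes, with a median of 0.14. Flt3 is a sorting marker, so its call is no finding. Il18r1, a chain of the interleukin 18 receptor, had levels of 5.99 and 5.75 in LMPP, against 4.87 and 4.88 in HSC, and rose by 0.99 ± 0.16 (limma adjusted p = 0.0083). Tgfbr3, the coreceptor betaglycan, had 4.87 and 4.53 in LMPP, against 6.57 and 5.67 in HSC, and fell by 1.42 ± 0.25 (limma adjusted p = 0.016). The call of Tgfbr3 was lost without LMPP replicate 1, without LMPP replicate 2 and without HSC replicate 1, and that of Il18r1 without LMPP replicate 1, without HSC replicate 1 and without HSC replicate 2. Of 22 homing and adhesion receptors Itga6 alone was called, and 4 were higher and 2 lower at an unadjusted p under 0.05 (3.37% and 4.03% of all genes).

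Genes of committed lymphocytes mostly did not pass. Of 20 early B lineage genes, Rag2, also a lymphoid priming gene, and Ighm were called higher and none lower (0.275% and 0.325% of all genes), with a median of 0.15. Ighm, the immunoglobulin mu constant region, had levels of 9.80 and 10.23 in LMPP, against 7.17 and 8.52 in HSC, and rose by 2.17 ± 0.31 (limma adjusted p = 0.0047). That call was lost without LMPP replicate 2 and with only the arrays of LMPP and HSC in the fit. Ebf1 and Pax5, the factors that commit cells to the B lineage, differed by -0.19 (adjusted p = 1) and 0.27 (adjusted p = 0.99), and both lay near or below 4.54 in most of the 4 arrays. Of 25 early T and NK lineage genes limma called none, with 3 higher and 1 lower at an unadjusted p under 0.05 (3.37% and 4.03% of all genes). Of 15 Notch pathway genes limma called none, with 1, Notch1, higher at an unadjusted p under 0.05 (3.37% of all genes).

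Granulocyte and monocyte progenitor genes had a median of 0.17, against 0.01 over all genes. Of 30, 1 was called higher and none lower (0.275% and 0.325% of all genes), 23 had a positive difference against 51.5% of all genes, and 7 were higher and none lower at an unadjusted p under 0.05 (3.37% and 4.03% of all genes). HSC replicate 1 was above HSC replicate 2 in 6 of the 30, against 47.5% of all genes, and the list means were 7.59 and 7.53 in LMPP and 7.13 and 7.46 in HSC. Emb, an immunoglobulin family membrane protein, had levels of 10.50 and 10.74 in LMPP, against 9.48 and 9.59 in HSC, and rose by 1.09 ± 0.16 (limma adjusted p = 0.0058). That call was lost without LMPP replicate 2, without HSC replicate 1 and with only the arrays of LMPP and HSC in the fit. It was also lost with probe sets averaged (0.89, limma adjusted p = 0.072). Irf8, a transcription factor of monocytes and dendritic cells, had 8.52 and 8.89 in LMPP and 7.12 and 7.95 in HSC (1.17, adjusted p = 0.15). Of 18 dendritic cell genes Flt3, a sorting marker, alone was called (higher, 0.275% of all genes). Of 15 mast cell, basophil and eosinophil genes limma called none, with 2 lower at an unadjusted p under 0.05 (4.03% of all genes).

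Most cell division genes had a small positive difference. Of 24, 21 had one (51.5% of all genes), 10 were higher and none lower at an unadjusted p under 0.05 (3.37% and 4.03% of all genes), and 1 was called higher (0.275% of all genes), with a median of 0.36. LMPP replicate 1 was above LMPP replicate 2 in 3 of the 24, against 52.8% of all genes. Kif23, a motor protein of cell separation, had levels of 8.68 and 8.90 in LMPP, against 7.88 and 7.89 in HSC, and rose by 0.91 ± 0.15 (limma adjusted p = 0.014), a call lost without LMPP replicate 2, without HSC replicate 1 and without HSC replicate 2. Bub1, a mitotic checkpoint kinase, had 7.85 and 8.46 in LMPP and 7.46 and 7.16 in HSC (0.85, adjusted p = 0.26). Mki67, a marker of dividing cells, had 10.20 and 10.32 in LMPP and 9.96 and 9.90 in HSC (0.33, adjusted p = 0.65). Of 25 DNA replication genes limma called none, and none passed an unadjusted p under 0.05, with a median of 0.05.

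**Figure D3:**
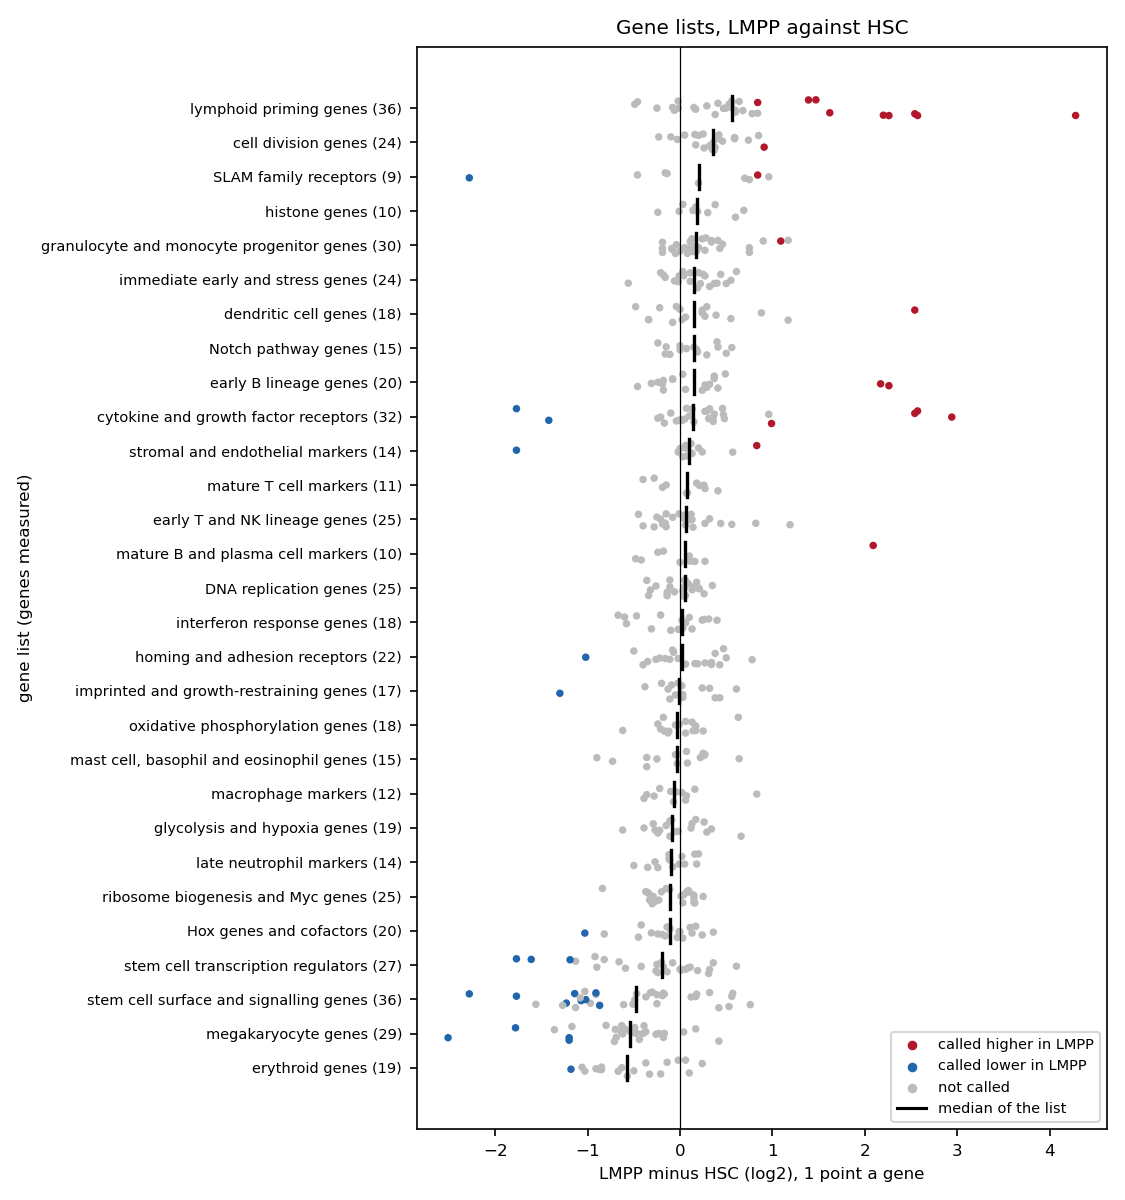
LMPP minus HSC difference (log2, horizontal) of each gene of 29 gene lists, with the number measured in brackets. Red points were called higher in LMPP, blue points lower and grey points neither, and black bars are list medians. Lymphoid priming genes lie at the top with a median of 0.56 and 9 red points, and megakaryocyte and erythroid genes at the bottom with medians of -0.54 and -0.57.

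Of the lists of general cell state, only the imprinted and growth-restraining genes gave a call. Over all genes, 3.37% were higher and 4.03% lower at an unadjusted p under 0.05, and 0.325% were called lower. Limma called none of 25 ribosome biogenesis and Myc genes (1 lower at an unadjusted p under 0.05), 18 oxidative phosphorylation genes (1 higher and 1 lower), 19 glycolysis and hypoxia genes (1 higher and 1 lower), 24 immediate early and stress genes (2 higher and 1 lower), 18 interferon response genes (2 lower) and 10 histone genes (1 higher). Among 17 imprinted and growth-restraining genes, Grb10, an imprinted adaptor that restrains growth factor signalling, fell by 1.30 ± 0.20 (limma adjusted p = 0.0077). The call of Grb10 was lost without LMPP replicate 2 and without HSC replicate 1.

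Few markers of other cells were called. Over all genes, 0.275% were called higher and 0.325% lower, and 3.37% were higher at an unadjusted p under 0.05. Limma called none of 12 macrophage markers (1 higher at an unadjusted p under 0.05) and none of 11 mature T cell markers (1 higher). Of 10 mature B and plasma cell markers Sdc1 alone was called. Of 14 stromal and endothelial markers, Pecam1, the adhesion molecule CD31, which blood progenitors also carry, was called higher at 0.83 ± 0.17 (limma adjusted p = 0.044) and Tek lower. The call of Pecam1 was lost in each fit that left out an LMPP or HSC array. The list means were 4.72 and 4.61 in LMPP and 4.65 and 4.59 in HSC for stromal and endothelial markers, and 4.79 and 4.96 in LMPP and 4.86 and 4.95 in HSC for macrophage markers.

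The called genes were then followed through the other populations, as a description. Being chosen for a difference between LMPP and HSC, they are more likely to have HSC or LMPP as the highest or lowest population. The counts below were not compared with all genes, so they do not by themselves show genes specific to HSC or LMPP. For 63 of the 72 genes lower in LMPP, HSC had the highest mean of all 9 populations. Their mean level was 5.07 and 5.06 in the LMPP arrays, against 6.64 and 6.48 in the HSC arrays, and 4.59 to 5.30 in the 13 others. The LMPP arrays lay within the range of those 13. Mecom had a mean of 5.28 in LMPP and 6.89 in HSC, and 3.25 to 3.85 in all other populations. The 61 genes higher in LMPP had a mean level of 7.39 and 7.58 in LMPP and 5.67 and 5.84 in HSC, while it was 7.44 and 7.51 in ETP, 6.96 and 7.03 in CLP, 6.79 and 7.08 in flt3+ CMP, and 6.35 and 6.29 in flt3- CMP. Of these 61, 16 were highest in ETP, 11 in LMPP, 11 in DN3 and 8 in NK, and 20 were lowest in HSC.

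**Figure D4:**
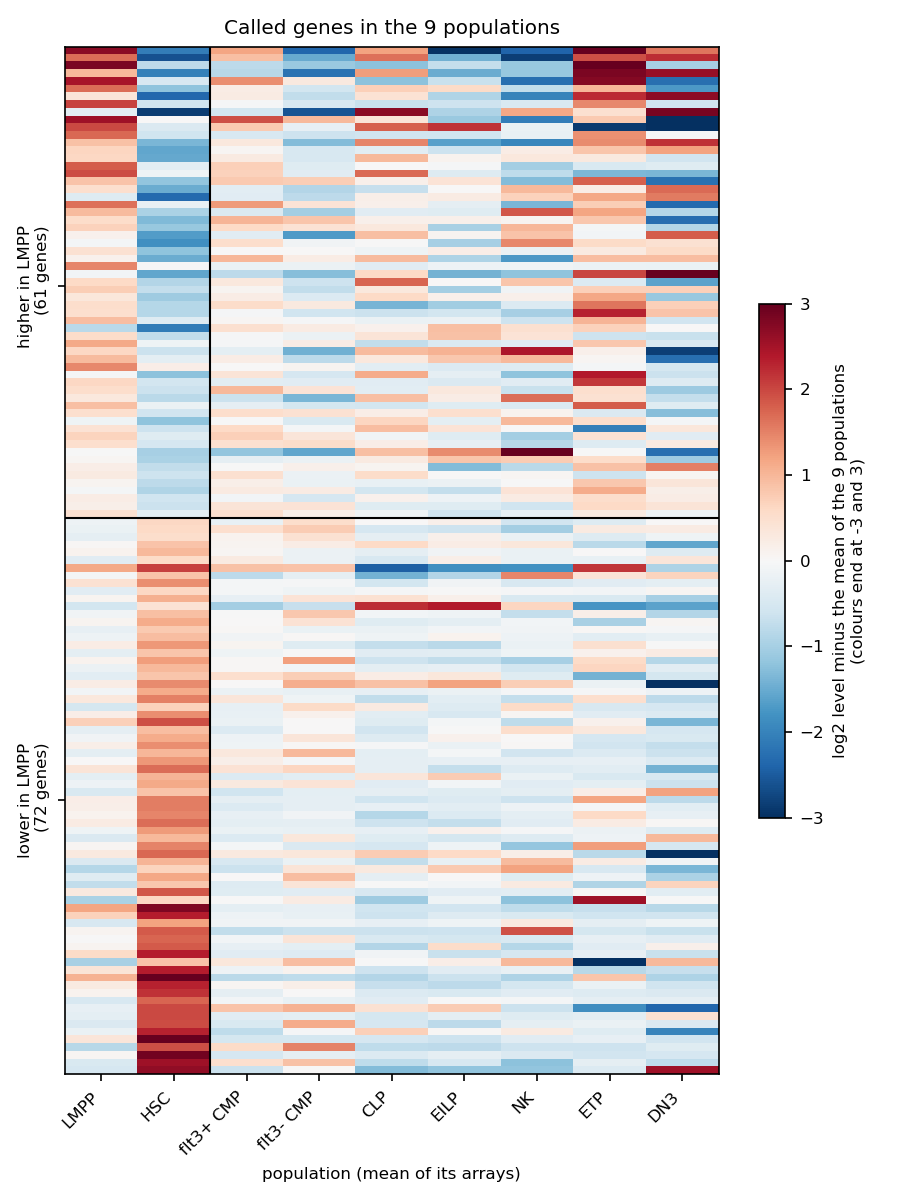
Mean log2 level of the 133 called genes (rows, 61 higher in LMPP above the line and 72 lower below it) in the 9 populations, as the difference from the gene's mean over populations. Red is above and blue below that mean, with colours ending at -3 and 3. The lower block is red mainly in HSC, the highest population for 63 of 72 genes, while the upper block is red in LMPP and in parts of ETP, DN3, CLP and flt3+ CMP. The genes were chosen for a difference between LMPP and HSC, which in part fixes the colours of these populations.

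The flt3+ and flt3- CMP arrays set apart a pair of myeloid progenitor populations that the labels divide by Flt3. The Flt3 transcript averaged 9.31 in flt3+ CMP and 8.34 in flt3- CMP and was not called (0.97 ± 0.35, limma adjusted p = 0.36). The means compared here come from other arrays than those of LMPP and HSC, but both comparisons come from 1 fit of all 17 arrays and share its SE for each gene, so their calls are not independent. Of 22180 genes, 10 were called higher in flt3+ CMP (0.0451%) and 14 lower (0.0631%). Of the 61 genes higher in LMPP, 4 were among those 10 (6.56% of the 61 and 40% of the 10), namely Dntt, Emp1, Il7r and Rag2, and none was among the 14. Dntt averaged 9.93 in flt3+ CMP and 7.51 in flt3- CMP, a difference of 2.42 ± 0.28 (limma adjusted p = 0.008). Il7r averaged 6.45 in flt3+ CMP and 4.4 in flt3- CMP, a difference of 2.05 ± 0.28 (limma adjusted p = 0.023), and Rag2 averaged 6.20 in flt3+ CMP and 4.57 in flt3- CMP (1.63 ± 0.26, limma adjusted p = 0.037).

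Emp1 averaged 7.70 in flt3+ CMP and 4.14 in flt3- CMP, 3.56 ± 0.53 (limma adjusted p = 0.035). A positive difference was found in 53 of the 61 genes, against 46% of all genes, with a median of 0.54 against -0.02. Of the 72 genes lower in LMPP, Pcdh7 was called lower in flt3+ CMP too, at -1.58 ± 0.27 (limma adjusted p = 0.049), and 55 were negative, against 54% of all genes. Megakaryocyte genes gave no call by limma in that comparison, with 5 of 29 lower at an unadjusted p under 0.05 (6.32% of all genes). Erythroid genes had a median of -0.88, with Aqp1, a water channel, and Blvrb, biliverdin reductase B, called lower (0.0631% of all genes). Aqp1 differed by -1.67 ± 0.27 (limma adjusted p = 0.037) and Blvrb by -1.55 ± 0.23 (limma adjusted p = 0.035). The 24 calls of the CMP comparison numbered 1 without flt3- CMP replicate 2, 2 without flt3- CMP replicate 1, 4 without flt3+ CMP replicate 2 and 6 without flt3+ CMP replicate 1, and of the 5 shared genes Dntt alone was still called, without flt3+ CMP replicate 1. With only the 4 CMP arrays in the fit 7 genes were called, of the 5 shared ones Il7r and Rag2, with the replicate block Dntt and Il7r, and in the 12 arrays low in Y-linked transcripts none of the 5. With each array centred 6 genes were called higher and 3 lower, and after quantile normalization 10 higher and 1 lower.

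CLP, the next lymphoid stage, were set against flt3- CMP in the same way. Here 732 genes were called higher in CLP (3.3%) and 646 lower (2.91%), and with each array centred 829 and 428. Leaving out 1 CLP or flt3- CMP array gave 421 to 534 higher and 190 to 243 lower, fewer in each of the 4 fits. Of the 61 genes higher in LMPP, 23 were called higher (37.7% of the 61 and 3.14% of the 732) and 6 lower, and of the 72 lower genes 19 were called lower (26.4% of the 72 and 2.94% of the 646) and 1 higher. Il7r averaged 9.71 in CLP and 4.4 in flt3- CMP, a difference of 5.31 ± 0.28 (limma adjusted p = 2.1e-07). Il1r1, Tespa1 and Cd48, which rose in LMPP, were lower in CLP, Il1r1 at 5.48 in CLP and 7.0 in flt3- CMP (-1.51 ± 0.31, limma adjusted p = 0.0094). The other 3 were Parp8, Pecam1 and BC016579.

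Ceacam10, of the carcinoembryonic antigen family, fell in LMPP by 0.99 and averaged 8.40 in CLP and 5.51 in flt3- CMP. Angpt1 averaged 6.33 in CLP and 9.64 in flt3- CMP (-3.31 ± 0.18, limma adjusted p = 2.4e-07). CLP differ from flt3- CMP in the Y-linked split, which cannot be told apart from the population. In that comparison 13 of 14 late neutrophil markers were also called higher, with a median of 2.06, and their part in the shared calls was not tested. The CMP comparison and this one share the flt3- CMP arrays and are given side by side only.

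**Figure D5:**
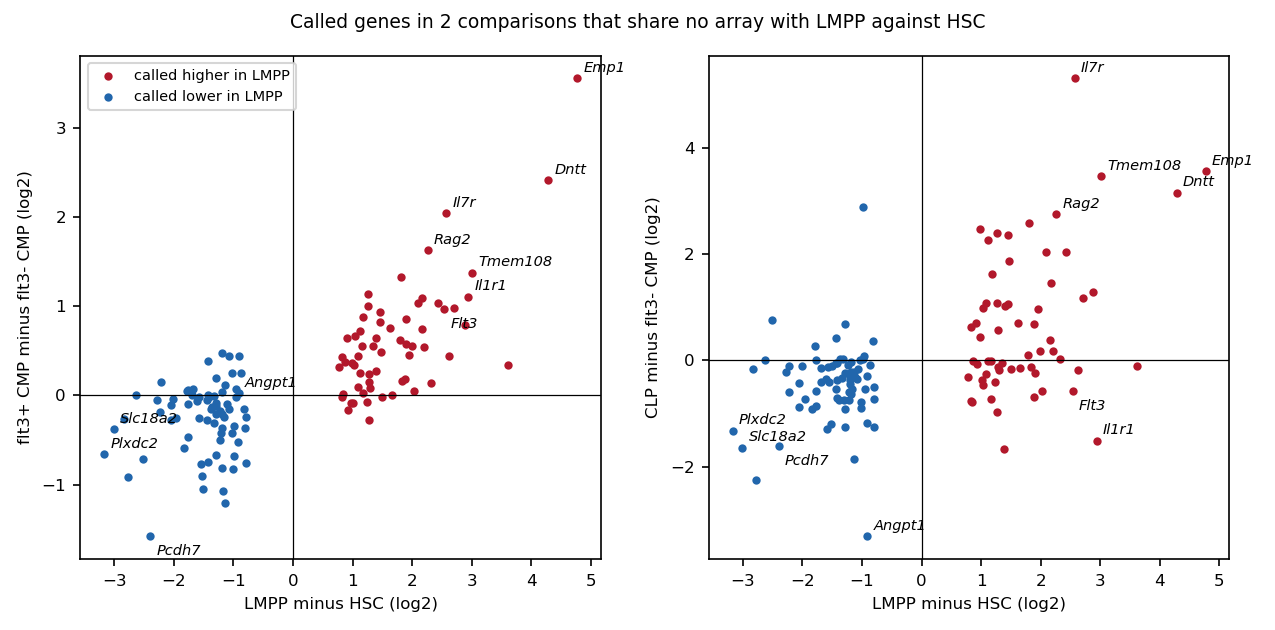
LMPP minus HSC difference (log2, horizontal) of the 133 called genes against flt3+ minus flt3- CMP (left, log2) and CLP minus flt3- CMP (right, log2), with genes called higher in LMPP in red and lower in blue. On the left 53 of 61 red points lie above 0 and 55 of 72 blue points below it. On the right Il7r lies highest at 5.31 and Il1r1 lies at -1.51.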

How the data were processed

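The deposited table holds log2 values per probe set for 17 arrays, a unit read from the values (1.58 to 13.77). Per the labels' protocols, RNA was amplified with a NuGEN kit, and per the submitters' processing notes the authors used Affymetrix Expression Console; the sources used here do not give its algorithm or version. Of 41345 probe sets, 23521 had 1 gene symbol in the array annotation and were kept, and 1814 with several and 16010 with none were left out. The brightest of several probe sets was taken for 1082 genes, with no filter on dim genes.

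A model with 1 mean per population was fitted in limma 3.58.1 (R 4.3.3), with 8 residual and 5.33 prior degrees of freedom, two-sided. It was also run on simulated data, with noise independent between arrays and spreads taken from the same fit. That run cannot show how technical replicates or unequal spread affect the calls. EILP has 1 array, assumed to vary like the others. The median SE of a difference was 0.2, limited by the number of arrays. Samples were not paired by replicate number, since deviations of equally numbered LMPP and HSC arrays had a correlation of -0.037.

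Named genes are the 15 largest changes in each direction among calls of at least 2-fold without overlap, leaving out predicted genes, small RNAs, pseudogenes and receptor segments (10 genes), and members of 30 gene lists. The genes, lists and comparisons were chosen with earlier results of these data known. Promoters are RefSeq windows of GRCm38.p6. Some cell type markers are not reported here.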

Additional observations from a re-analysis of the deposited data

How the results depend on the processing

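Of 55 named or listed genes followed over 14 settings, none reversed and 20 kept their call under every setting that could test them, among them Dntt, Il7r, Rag2, Satb1, Emp1, Il1r1, Slamf1, Trpc6, Plxdc2, Slc18a2 and Klf12. With the replicate block, calls for LMPP against HSC numbered 127, 122 of them shared with the 133 reported, and of the 55 genes 3 lost their call, while those of flt3+ against flt3- CMP numbered 6.

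With only the arrays compared in the fit, which leaves 2 residual degrees of freedom, calls for LMPP against HSC numbered 29 (16 higher and 13 lower), with 1746 genes at an unadjusted p under 0.05. There 1 stem cell transcription regulator, 1 stem cell surface and signalling gene and 0 megakaryocyte genes (limma, 18 lower at an unadjusted p under 0.05) were called lower, and 7 genes were called between the CMP populations. Leaving out 1 LMPP or HSC array gave 57 to 122 calls, 21 to 41 higher and 35 to 81 lower, with 4 to 9 lymphoid priming genes, 2 to 7 stem cell surface and signalling genes and 0 to 3 megakaryocyte genes. Leaving out dim genes, where 11208 were tested, gave 46 genes lower and 5 of the stem cell surface and signalling genes. Quantile normalization gave 5 stem cell transcription regulators and 11 calls between the CMP populations, where centring gave 9. In the 12 arrays low in Y-linked transcripts the stem cell surface and signalling genes gave 2 calls and the CMP populations 1. Without CLP, EILP, NK, ETP and DN3, an alternative chosen after seeing the data, 5 stem cell surface and signalling genes, 2 megakaryocyte genes and 4 genes between the CMP populations were called. Leaving out 1 CMP array gave 1 to 6 calls between the CMP populations, and leaving out 1 CLP or flt3- CMP array 628 to 777 calls between CLP and flt3- CMP. Each fit without 1 LMPP or HSC array lost some of the reported calls for LMPP against HSC and gained others. Its number of calls is therefore not the number kept. The cause of these changes was not tested. Several of these fits also hold fewer arrays or genes, and the part of that was not tested either.

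With 2 arrays a population, the sizes of differences for genes near the median of all values are the least certain. A gene that misses the threshold is not shown to be level.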

Other observations

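Further called genes outside the lists and the naming rule are given here, picked after their values were seen. They were not among the 55 genes followed over the other settings. Il18rap, the partner chain of Il18r1 in the interleukin 18 receptor, had 7.45 and 7.95 in LMPP, against 6.57 and 6.31 in HSC, and rose by 1.26 ± 0.26 (limma adjusted p = 0.046). Both chains of that receptor were called higher, but the call of Il18r1 was lost in 4 of 14 other settings. Il12a, a subunit of interleukin 12, rose by 1.90 ± 0.29 (limma adjusted p = 0.0077), Cd69, a lymphocyte activation antigen, by 1.83 ± 0.31 (limma adjusted p = 0.014) and Btla, an inhibitory lymphocyte receptor, by 1.28 ± 0.26 (limma adjusted p = 0.042). Xrcc6, which encodes the Ku70 protein of DNA end joining, had 7.5 and 7.48 in LMPP, against 6.63 and 6.5 in HSC, and rose by 0.93 ± 0.16 (limma adjusted p = 0.016). The arrays of each population lay close together for Xrcc6. For Btla the HSC mean lay below 4.54, so the size of its rise is uncertain.

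Sdc2, a syndecan, had 3.69 and 3.59 in LMPP, against 4.68 and 4.52 in HSC, and fell by 0.96 ± 0.17 (limma adjusted p = 0.02), with LMPP below 4.54. Deptor, an inhibitor of the mTOR kinase, had 5.83 and 4.91 in LMPP, against 7.22 and 6.68 in HSC, and fell by 1.58 ± 0.28 (limma adjusted p = 0.017). Cited2, a transcription cofactor with a role in stem cell maintenance, fell by 0.82 ± 0.16 (limma adjusted p = 0.035), with 7.5 and 7.23 in LMPP against 8.19 in both HSC arrays. Ptn, the growth factor pleiotrophin, fell by 1.69, and Plxnc1, a semaphorin receptor, by 1.44 ± 0.18 (limma adjusted p = 0.0015).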
